A study of Mus musculus with 21 samples.

Results

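Occupancy of tRNA genes by RNA polymerase III (Pol III) in wild-type (WT) mouse skin was compared with the reads of the tRNAs themselves. All WT libraries of both assays were taken, 2 of Pol III ChIP-seq and 4 of tRNA-seq, which are 6 of the 21 samples mapped in the series, and 1 WT input library gave the background of Pol III. Counts were summed per isoacceptor, the tRNAs that share an amino acid and an anticodon, so that GluTTC stands for glutamate tRNA with the anticodon TTC. Of 65 isoacceptors with predicted loci in the Pol III table, 59 also appear in the tRNA table. The study examined back skin of mice lacking the RNA methyltransferase NSun2 (NSun2−/−), and only their WT controls were used here. These controls were males of a C57Bl6/J CBA F1 background from the breedings that gave the NSun2−/− mice, collected at postnatal day 25 when hair follicles enter anagen. Each ChIP sample pooled skin of 3 mice, for which an age of 3 to 3.5 weeks is also given, fixed in formaldehyde and precipitated with an antibody against POLR3A. The title of the first Pol III library reads PolII, while its antibody is given as POLR3A. Total RNA for tRNA-seq was prepared from skin with Trizol, and the labels name no pairs between libraries of the assays. Both tables list tRNA genes only, so that markers of the skin's cell types cannot be read in them, and in bulk skin fewer cells of a type and less RNA per cell cannot be told apart.

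Pol III transcribes tRNA genes from a promoter that lies inside the gene. The factor TFIIIC binds its A box and B box, places TFIIIB upstream of the start, and TFIIIB recruits the polymerase. The precursor loses its leader to RNase P and its trailer to RNase Z, receives a CCA tail that is not encoded in the mouse gene, and is modified at many bases. Cleavage of a mature tRNA in its anticodon loop leaves a 5′ piece and a 3′ piece that ends in CCA.

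The Pol III libraries held 36866 and 63136 counts at 3283 predicted tRNA loci, and the input held 15918. The tRNA-seq libraries held 17944789, 17352126, 24270307 and 22429614 counts. Reads of 25 to 40 nt that begin at the first nucleotide of a tRNA gene, called 5′ fragments, took 77.0% ± 5.27 of the counts of a library (SD, n = 4). The 4 libraries lay at 73.5%, 71.6%, 82.3% and 80.7%. Reads of 25 to 40 nt that end in CCA, called 3′ CCA fragments, took 3.02% ± 1.28 (SD, n = 4), or 2.53%, 4.87%, 1.95% and 2.73%. Near full-length reads, which end in CCA and cover at least 90% of a gene, took 7.99% ± 1.53 (SD, n = 4), or 9.18%, 9.44%, 6.78% and 6.56%. The 5′ share was higher in replicates 3 and 4 and the near full-length share was higher in replicates 1 and 2. Only 0.0377% of the counts came from sequences longer than 76 nt. For 13 isoacceptors, those of Leu and Ser with ArgTCT, IleTAT, SeC(e)TCA and TyrGTA, a near full-length read would need at least 77 nt, and few reads were that long. The gene length of ArgTCT, IleTAT, LeuCAA and TyrGTA includes an intron. Of 10174 sequences listed at a single gene with unequal counts in the 4 libraries and none at 0, 58.8% had counts that share a common factor above 1, so that counts may not be single reads. Between pairs of libraries, log2 counts per sequence correlated with a Pearson's r of 0.45 to 0.49 where replicate 1 was a member and 0.64 to 0.72 among replicates 2 to 4. Across sequences replicate 1 thus stood apart, and some results are also given without it.

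Pol III counts were spread over many isoacceptors. A tRNA gene counted as bound with at least 10 reads in both libraries and at least 2-fold the level of the input, in counts scaled to the library total (RPM) after a pseudocount of 1. The number of bound genes depends on where the pseudocount enters. Among the predicted loci, 222 genes of 47 isoacceptors were bound, and they took 66.5% and 71.3% of the Pol III counts, against 8.19% of the input, a contrast that the limit over this same input partly sets. SerGCT had the highest summed occupancy, with 12.3% and 9.70% of the counts of the libraries, but its 1167 predicted loci took 26.9% of the input (95% interval 26.2% to 27.6%). AlaAGC was similar, with 5.32% and 4.72% over 327 loci and 11.9% in the input (11.4% to 12.4%). Summed over all loci, both isoacceptors thus took a smaller share of Pol III than of input. Over bound genes alone, MetCAT came first, with 7.15% and 6.16% of the counts in bound genes, followed by AspGTC with 5.36% and 3.94%, TyrGTA with 4.24% and 4.87% and GlyGCC with 4.35% and 3.89%. SerGCT then held 3.26% and 4.57% and AlaAGC 3.01% and 3.26%. The strongest single gene, TyrGTA on chromosome 14 (chr14:51709164-51709253 of mm9, plus strand), had 9195 and 12845 RPM and took 35.0% of the occupancy of the 9 bound TyrGTA genes. Among isoacceptors with several bound genes the leading gene took least for AspGTC, 17.9% over 10 genes. Across the 47 isoacceptors, summed occupancy followed the number of bound genes (Spearman's rho = 0.86). The sum runs over those same genes, so that part of this relation is set by construction. At the other end, SeC(e)TCA, GlyACC, IleTAT and ThrCGT had 1 bound gene each.

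Reads of the tRNAs were far more concentrated than occupancy. The 5 highest isoacceptors took 29.4% ± 2.69 of all Pol III counts (SD, n = 2), 24.3% ± 1.14 of those in bound genes and 48.2% of the input. The same number took 92.7% ± 0.515 of 5′ fragments, 71.8% ± 3.79 of 3′ CCA fragments and 99.2% ± 0.206 of near full-length reads (SD, n = 4). Written as the number of equally abundant isoacceptors that would give the same Shannon entropy, Pol III had 39.0 ± 0.593 over bound genes (SD, n = 2), 5′ fragments 3.07 ± 0.159, 3′ CCA fragments 10.5 ± 2.06 and near full-length reads 2.74 ± 0.200 (SD, n = 4). The leaders differed as well. By means over libraries, MetCAT led bound genes, GlyGCC led 5′ fragments, ArgTCT led 3′ CCA fragments and GluTTC led near full-length reads. In tRNA-seq replicate 1, however, AspGTC led 3′ CCA fragments with 20.2%, above the 13.8% of ArgTCT. The lead of ArgTCT also depended on the limit of 25 to 40 nt. Among 3′ CCA reads of any length under 90% of the gene, HisGTG took 44.9%, 28.5%, 24.2% and 20.1% in the 4 libraries and ArgTCT 4.58%, 21.4%, 23.0% and 23.5%, so that HisGTG came first in replicates 1 to 3. AspGTC and GlyGCC were the only isoacceptors among the 10 highest of all 4 readouts, bound genes standing for Pol III. HisGTG was among the 10 highest of the others, but 5′ fragments count starts at the first nucleotide only. Its short reads that begin 1 nt before the gene had 18155 RPM, against 2571 RPM of 5′ fragments for GluTTC, the 10th there.

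**Figure D1:**
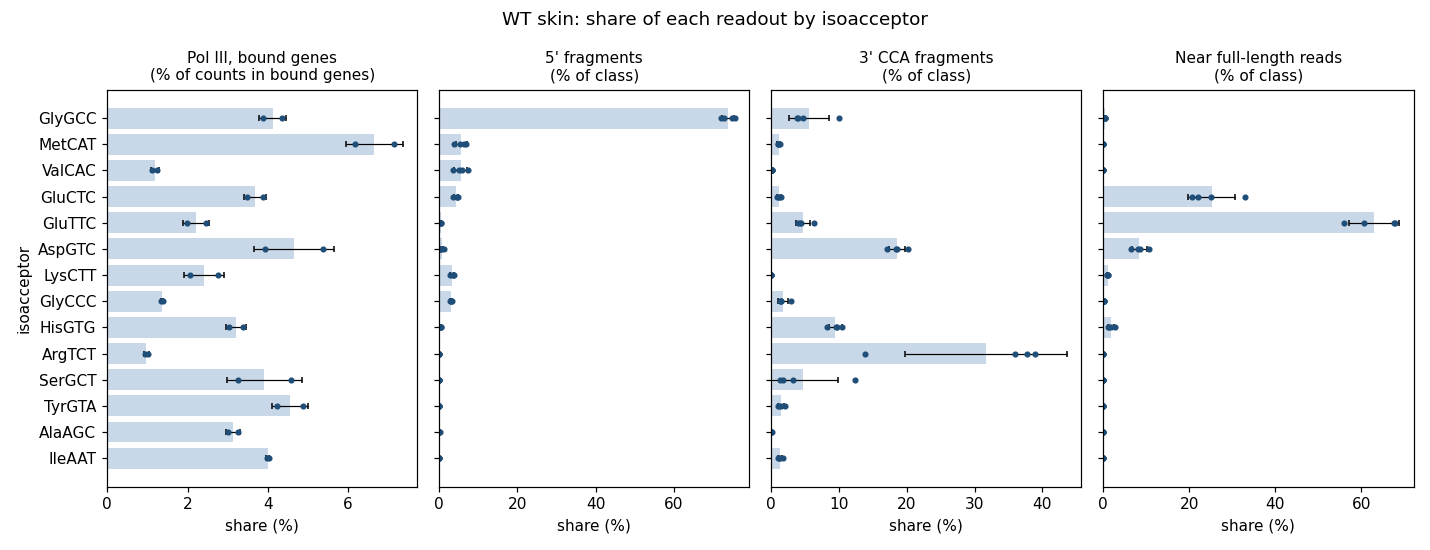
Share of selected isoacceptors in each readout in WT skin, among them the 5 most abundant of each readout. Shares are in percent of the read class or, for Pol III, of the counts in bound genes. Bars are means with SD, points are libraries. GluTTC took 62.9% ± 5.72 of near full-length reads and 2.21% ± 0.335 of Pol III counts in bound genes (SD).

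Across isoacceptors, the order of summed occupancy was related to the order of each read class. Isoacceptors share the depth and preparation of their library and are no replicates, so that the coefficients are descriptions without a p. Over all loci of 62 isoacceptors with at least 10 Pol III counts, Spearman's rho with mean Pol III RPM was 0.76 for 5′ fragments, with 0.74 to 0.78 over the 8 pairs of a Pol III and a tRNA-seq library. For 3′ CCA fragments it was 0.74 (0.66 to 0.76), and for near full-length reads 0.50 (0.47 to 0.51). Pearson's r of log2 RPM was 0.66, 0.66 and 0.36 in the same order. The input, which has no precipitation, had a rho of 0.63 with Pol III over these loci. Over the 47 isoacceptors with a bound gene, rho fell to 0.55 for 5′ fragments (0.45 to 0.59 over the pairs), 0.52 for 3′ CCA fragments (0.38 to 0.60) and 0.39 for near full-length reads (0.30 to 0.41). Over the 34 of them with a gene short enough for a near full-length read, chosen after seeing the data, it was 0.52, 0.50 and 0.44. The number of bound genes alone gave 0.55, 0.38 and 0.35 with the 3 classes. When occupancy was divided by the number of bound genes, rho was 0.0658 for 5′ fragments, 0.40 for 3′ CCA fragments and 0.16 for near full-length reads. Only for 3′ CCA fragments, then, did occupancy per gene keep most of the relation over bound genes. Libraries of an assay ranked the 47 isoacceptors nearly alike, with a rho of 0.93 between the Pol III libraries. Between tRNA-seq libraries the lowest rho was 0.98 for 5′ fragments, 0.97 for 3′ CCA fragments and 0.95 for near full-length reads. Isoacceptors without reads tie in these ranks, and over the 42, 40 and 19 with reads of the class, chosen after seeing the data, the lowest rho was 0.98, 0.96 and 0.94. Among the read classes themselves, rho was 0.31 between 5′ and 3′ CCA fragments, 0.56 between 5′ fragments and near full-length reads and 0.41 between 3′ CCA fragments and near full-length reads.

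**Figure D2:**
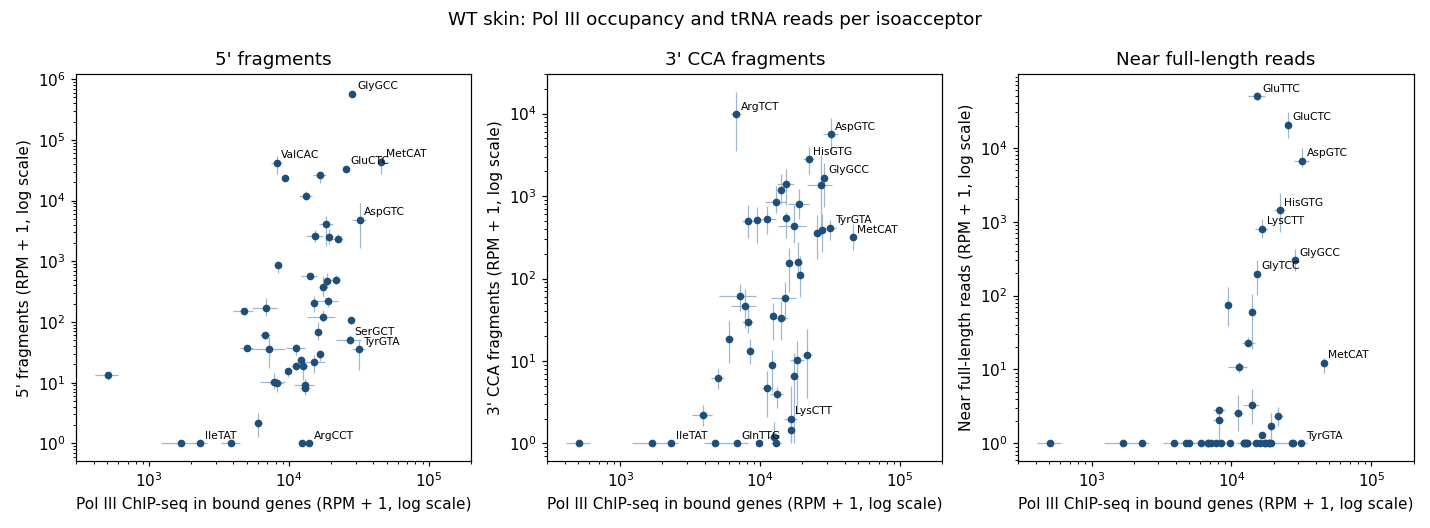
Mean Pol III RPM in bound genes of each isoacceptor in WT skin against mean RPM of 5′ fragments, 3′ CCA fragments and near full-length reads. Axes are on a log scale, with a point per isoacceptor that has a bound gene. Spearman's rho over bound isoacceptors was 0.55, 0.52 and 0.39.

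Each isoacceptor's share of a read class was then compared with its share of Pol III counts, with edgeR's quasi-likelihood test on summed counts, and called from a 2-fold difference with a p under 0.05 after Benjamini-Hochberg adjustment. The comparisons of the 3 read classes share the Pol III libraries. The p-values measure only the spread between libraries, and differences between the assays in how sequences are captured and aligned are part of every difference. Of 64 isoacceptors tested for 5′ fragments, 60 were called (93.8%), 3 with a higher share than in Pol III (4.69%) and 57 with a lower share (89.1%). With sequences of a single isoacceptor, 6 were higher, GlyGCC not among them, and 54 lower. The libraries of the assays did not overlap for 62 of the 64 (96.9%). Of the 47 isoacceptors with a bound gene, 3 were higher and 40 lower, and the other lower calls fell on isoacceptors without a bound gene. Shares add up to 100%, so that a few very abundant isoacceptors lower all others. With TMM normalization, which centres the differences on the typical isoacceptor, 16 were higher and 41 lower, and with DESeq2 19 and 40. TMM moved the median log2 difference by 5.97 for 5′ fragments, 1.65 for 3′ CCA fragments and 4.00 for near full-length reads.

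GlyGCC took 72.9%, 72.1%, 75.6% and 74.8% of 5′ fragments in the 4 tRNA-seq libraries and 4.42% and 4.45% of Pol III counts, with 2.77% in the input. Every tRNA-seq library was far above both Pol III libraries. This gave a log2 difference of 4.06 (standard error 0.05, edgeR adjusted p = 1.68e-10). It was smaller without sequences that are also listed under another isoacceptor. With sequences of a single isoacceptor only, the difference was 0.72 and below the 2-fold limit (edgeR adjusted p = 0.0256). Over all 5′ fragments, 75.1% of counts were of such shared sequences, against 6.73% of 3′ CCA fragments and 0% of near full-length reads. ValCAC was higher in 5′ fragments too, with 5.89%, 7.45%, 5.11% and 3.46% against 1.27% and 1.33% of Pol III, and a log2 difference of 2.07 (standard error 0.30, edgeR adjusted p = 2.18e-04). Its 4 tRNA-seq values all exceeded both Pol III values, although ValCAC has only 3 bound genes. GlyCCC had 2.85%, 2.98%, 3.06% and 3.27% of 5′ fragments against 1.04% and 1.07% of Pol III, with a log2 difference of 1.53 (standard error 0.14, edgeR adjusted p = 1.06e-05). The direction for GlyCCC turned to −3.85 when no mismatch to the gene was allowed (edgeR adjusted p = 9.25e-07).

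The overlap of the glycine tRNAs is visible in their sequences. The most abundant 5′ fragment of GlyGCC, 31 nt long, had 149719, 221478, 305191 and 261916 RPM in the 4 libraries and was lowest in replicate 1. It was placed on a GlyGCC gene with 0 mismatches. Under GlyCCC it is listed as well, with 4807, 7111, 9798 and 8409 RPM. There it is the top 5′ sequence and was placed on a GlyCCC gene with 2 mismatches. That gene is the least occupied of the 3 bound GlyCCC genes, with 569.6 and 412 RPM of Pol III, against 7785 and 6050.4 RPM at the most occupied GlyGCC gene. The fragment is shown with the last 3 nucleotides in capitals, and that GlyGCC gene (chr11:68932296-68932366 of mm9, minus strand) and GlyCCC gene (chr3:96186834-96186904 of mm9, plus strand) with the anticodon in capitals.
GlyGCC 5′ fragment: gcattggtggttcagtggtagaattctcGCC
GlyGCC gene: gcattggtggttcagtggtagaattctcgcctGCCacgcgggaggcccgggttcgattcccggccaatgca
GlyCCC gene: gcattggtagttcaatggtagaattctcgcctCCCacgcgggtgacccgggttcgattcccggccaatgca

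Other 5′ fragments had shares close to those of Pol III or far below them. MetCAT took 6.93%, 3.91%, 5.32% and 6.42% of 5′ fragments against 4.93% and 4.65% of Pol III, with a log2 difference of 0.24 (standard error 0.22, edgeR adjusted p = 0.323), and was not called. GlnCTG (0.05), GluCTC (0.39) and LysCTT (0.70) were not called either, with their log2 differences in parentheses. A miss of the threshold does not show equal shares. Further down, SerGCT had 0.00654%, 0.00850%, 0.00525% and 0.00597% of 5′ fragments against the 12.3% and 9.70% of Pol III given above, a log2 difference of −10.71, or −9.22 over bound genes alone. TyrGTA, with 9 bound genes, had 0.00209%, 0.00663%, 0.00592% and 0.00326% of 5′ fragments against 2.89% and 3.53% of Pol III, a log2 difference of −9.48, or −9.99 over bound genes alone. In both cases the tRNA-seq values lay under the Pol III values in every library. AspGTC (−2.69) and GluTTC (−2.27) were lower in 5′ fragments by less. Among the 47 isoacceptors with a bound gene, 5 had no 5′ fragment in any library: ArgCCT, GlyACC, IleTAT, ThrAGT and ThrCGT. Against a floor of 3 counts per library, the 5′ share of ArgCCT was at least 92958-fold lower than its Pol III share, that of ThrAGT at least 85250.1-fold and that of IleTAT at least 30759.8-fold. Such floors cover counting error only, and the libraries were amplified without molecular identifiers. ArgCCT, ThrAGT and IleTAT did have other reads, so that none of the 47 lacked reads altogether.

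HisGTG shows how a value can turn on the start of the read. Histidine tRNA is known to receive an extra guanosine in front of its first encoded nucleotide, where its synthetase recognises it. HisGTG had 0.327%, 0.310%, 0.247% and 0.347% of 5′ fragments against 2.31% and 3.08% of Pol III, with a log2 difference of −3.13 (standard error 0.21, edgeR adjusted p = 1.74e-06). Among short HisGTG reads from the 5′ end, however, 86.8% ± 1.60 began 1 nt before the gene (SD, n = 4). They amounted to 18155 RPM, against 2366 RPM from the first nucleotide. Counting starts within 1 nt, the log2 difference of HisGTG from Pol III was −0.03 and not called (edgeR adjusted p = 0.906). For GlyGCC, MetCAT, AspGTC and GlnCTG, the first nucleotide held 100%, 99.9%, 99.8% and 100% of such reads.

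The 5′ fragments of abundant isoacceptors ended in the anticodon loop. For GlyGCC 73.3% ended there, with a modal length of 31 nt, and for ValCAC 99.4%, with 33 nt. LysCTT fragments ended in the loop in 98.6% of counts and most often had 34 nt. Leucine and serine tRNAs, which carry a long variable arm, went both ways. The modal length was 26 nt for LeuCAA and LeuCAG and 25 nt for SerAGA and SerTGA. Of these, 4.24%, 27.85%, 37.8% and 41.6% ended in the loop. It was 34 nt for LeuAAG and LeuTAG, 33 nt for SerCGA and 32 nt for LeuTAA and SerGCT. In that order, 83.8%, 77.4%, 100%, 59.9% and 94.4% ended in the loop. Among the 10 isoacceptors with most 5′ fragments, MetCAT had the most uniform length, with 95.2% of its 5′ fragments at 31 nt. MetCAT joins the initiator tRNA, which starts protein synthesis, and the elongator tRNA, which reads internal methionine codons. The 8 genes with the initiator's start sequence held 72.3% ± 1.70 of the Pol III counts of 13 MetCAT genes (SD, n = 2). The 5 other MetCAT genes held the remaining 27.7% ± 1.70 of the occupancy and 56.9% ± 13.2 of the 3′ CCA fragments (SD, n = 4). Of MetCAT 5′ fragments, however, they held only 0.00368% ± 0.00116 (SD, n = 4), and all near full-length reads of MetCAT were placed on initiator genes. The initiator fragment that made up 57.6% of MetCAT 5′ counts is shown with its last 3 nucleotides in capitals, beside that of ValCAC.
MetCAT 5′ fragment: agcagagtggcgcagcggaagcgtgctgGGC
ValCAC 5′ fragment: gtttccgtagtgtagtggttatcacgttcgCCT

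In 3′ CCA fragments, 57 of 64 isoacceptors tested against Pol III were called (89.1%), 6 of them higher (9.38%) and 51 lower (79.7%). The libraries of the assays did not overlap for 61 of the 64 (95.3%). Of the 47 with a bound gene, 6 were higher and 34 lower in this test over all loci. TMM gave 12 higher and 41 lower, and DESeq2 12 and 40. ArgTCT, whose genes carry an intron, took 13.8%, 37.8%, 39.0% and 35.9% of 3′ CCA fragments against 0.960% and 1.04% of Pol III. Replicate 1 was far below the other tRNA-seq libraries, and all 4 lay above both Pol III libraries, with a log2 difference of 4.98 (standard error 0.55, edgeR adjusted p = 1.84e-04). Without replicate 1 the log2 difference was 5.23. AspGTC took 20.2%, 18.4%, 17.1% and 18.5% against 4.27% and 3.94%, with a log2 difference of 2.18 (standard error 0.18, edgeR adjusted p = 7.80e-05). HisGTG had 9.76%, 8.18%, 9.57% and 10.4% against 2.31% and 3.08% and GluTTC 6.25%, 4.33%, 3.96% and 4.21% against 1.41% and 1.84%, with log2 differences of 1.81 and 1.53. GluTTC was highest in replicate 1, without which its difference was 1.36. For AspGTC, HisGTG and GluTTC, each tRNA-seq library exceeded each Pol III library. ArgTCG was higher by 1.14, but this was not called over bound genes alone, where it was 0.61, with sequences of a single isoacceptor (0.88), without Pol III replicate 1 (0.91), or with fragments of any length under 90% of the gene (0.37). ArgCCT, which had no 5′ fragment, was the last of the 6, with 3.13%, 3.80%, 4.23% and 4.76% against 1.74% and 1.90%, and a log2 difference of 1.12 (standard error 0.24, edgeR adjusted p = 0.00321). It was not called over bound genes alone (0.97), with a replicate block (0.92) or with any length under 90% of the gene (0.49). GlyGCC, the leader in 5′ fragments, had 10.01%, 4.68%, 3.79% and 3.99% of 3′ CCA fragments, highest in replicate 1, and was not called against Pol III (log2 difference 0.34). SerGCT was not called either, with 12.3%, 3.21%, 1.75% and 1.31% and again the highest value in replicate 1. Without replicate 1 it held 2.09% ± 0.996 (SD, n = 3) and was called lower, with a log2 difference of −2.40, and it was also called lower with any length under 90% of the gene (−1.97). Over bound genes alone it was not called (0.25). No 3′ CCA fragment was found for AlaCGC, GlnTTG, GlyACC, IleTAT, PheGAA, ProCGG and SeC(e)TCA. For GlnTTG the share was at least 1743-fold lower than in Pol III. PheGAA did have 3′ CCA reads of other lengths, with 3850, 2309, 3097 and 1091 counts under 90% of the gene, and its log2 difference was then −2.59. ProCGG had at most 24 such counts in a library and a log2 difference of −9.45.

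The beginnings of 3′ CCA fragments differed between isoacceptors. For GluTTC, 84.3% began in the anticodon loop and 80.4% had 40 nt, the longest length counted. For AspGTC 71.0% began there. HisGTG fragments had a modal length of 37 nt and began in the loop in 21.9% of counts. Those of GlyGCC were shorter, with 29 nt in 70.1% and 12.9% in the loop. SerGCT fragments also had 29 nt most often. Its genes have 82 nt with the anticodon at position 34. A CCA read from the loop would thus exceed 40 nt, so that none could begin there. The most abundant 3′ CCA fragment of ArgTCT, with 483, 3485, 1239.6 and 1663 RPM in the 4 libraries, that of AspGTC, with 1326, 3270.2, 897 and 1713 RPM, and that of GluTTC, with 848, 1216, 471 and 688 RPM, are shown with the CCA tail in capitals. The first was again lowest in replicate 1.
ArgTCT 3′ CCA fragment: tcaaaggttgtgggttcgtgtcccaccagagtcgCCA
AspGTC 3′ CCA fragment: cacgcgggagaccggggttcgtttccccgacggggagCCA
GluTTC 3′ CCA fragment: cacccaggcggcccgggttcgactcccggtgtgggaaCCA

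Of 64 isoacceptors tested for near full-length reads, 63 were called (98.4%), 3 higher (4.69%) and 60 lower (93.8%). TMM gave 6 higher and 55 lower, and DESeq2 7 and 54. The 13 isoacceptors with genes too long for such reads are all among the 60. Of the 47 with a bound gene, 3 were higher and 43 lower in the main test. GluTTC took 55.9%, 60.7%, 67.4% and 67.7% of these reads against 1.41% and 1.84% of Pol III, with a log2 difference of 5.28 (standard error 0.35, edgeR adjusted p = 5.94e-18). GluCTC took 33.0%, 25.1%, 21.9% and 20.7% against 3.10% and 3.51%, with a log2 difference of 2.93 (standard error 0.29, edgeR adjusted p = 2.01e-12). All tRNA-seq values of both glutamate tRNAs lay above both Pol III values, with the lowest GluTTC and the highest GluCTC value in replicate 1. AspGTC had 6.35%, 10.5%, 8.04% and 8.47% against 4.27% and 3.94%, with a log2 difference of 1.02 (standard error 0.25, edgeR adjusted p = 1.92e-04). Its difference stayed under 2-fold over bound genes alone (0.84), with reads that lack CCA included (0.76), without tRNA-seq replicate 2 (0.89) and without Pol III replicate 2 (0.97). HisGTG, with 2.70%, 1.76%, 1.07% and 1.31%, was not called (log2 difference −0.66), and its libraries 3 and 4 lay below the first pair. Of the 47 isoacceptors with a bound gene, 28 had no near full-length read in any library, and 12 of these have genes too long for it. Among the other 16, the near full-length share was at least 16605-fold lower than the Pol III share for AsnGTT, 15476-fold for IleAAT and 15454-fold for CysGCA. Genes of ArgTCT, IleTAT, LeuCAA and TyrGTA contain an intron, so that a spliced full-length read cannot match the gene without a gap, and none of the 4 had such a read. The leading read of GluTTC, with 16681, 22872, 22497 and 20494 RPM in the 4 libraries, is shown with the anticodon in capitals.
GluTTC near full-length read: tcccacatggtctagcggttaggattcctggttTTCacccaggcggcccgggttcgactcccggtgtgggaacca

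Because all 3 classes were counted in the same libraries, they were also compared with each other, with the library as a block. Isoacceptors without reads in both classes could not be tested. Of 42 isoacceptors, 40 differed between 5′ fragments and near full-length reads (95.2%), 33 with a higher 5′ share (78.6%) and 7 with a lower one (16.7%). TMM and DESeq2 both gave 32 and 8, and sequences of a single isoacceptor 33 and 4 of 41 tested. The 4 values of the classes did not overlap for 41 of the 42 (97.6%). CysGCA had 0.242%, 0.779%, 0.688% and 0.415% of 5′ fragments and no near full-length read, a share at least 2826-fold higher, and for ValAAC it was at least 605-fold higher. GluTTC (−7.57), AspGTC (−3.96), GlyTCC (−3.15) and GluCTC (−2.52) had lower log2 shares in 5′ fragments. The difference of GluCTC was −0.51 and not called with sequences of a single isoacceptor (edgeR adjusted p = 0.0653). Between 3′ CCA fragments and near full-length reads, 37 of 37 differed (100%), 33 higher in 3′ fragments (89.2%) and 4 lower (10.8%), namely GluCTC (−4.44), GluTTC (−3.77), GlnCTG (−1.45) and LysCTT, which had no 3′ CCA fragment in replicates 1, 2 and 4. TMM gave 27 higher and 5 lower, and DESeq2 26 and 6. Isoacceptors with genes too long for near full-length reads are part of the higher ones in both comparisons. With 3′ reads of any length under 90% of the gene, LysCTT turned to 0.63 and GlnCTG to −0.13, neither called. DESeq2 moved the median log2 difference by −3.49 in the first of these comparisons and −2.80 in the second, and TMM by −0.096 and −2.80. Between the ends, 38 of 45 isoacceptors were called (84.4%), 13 higher in 5′ fragments (28.9%) and 25 higher in 3′ CCA fragments (55.6%). Here the values did not overlap for 39 of the 45 (86.7%). This split depended on scaling, with 24 and 17 after TMM, which moved the median by 4.72, and 24 and 18 with DESeq2. It also depended on length, with 10 higher and 29 lower of 46 tested for 3′ reads of any length under 90% of the gene. LysCTT leaned to the 5′ end, but its 3′ CCA fragments were found in replicate 3 alone, so that the size of the difference is uncertain, and with any length it was 1.13. ArgTCT (−11.90) and ArgTCG (−11.38) leaned to the 3′ end, with −10.98 and −10.55 at any length. ArgCCT was at least 202752-fold lower in 5′ than in 3′ fragments and ThrAGT at least 5849-fold. ProCGG and SeC(e)TCA were called higher in 5′ fragments, but not without tRNA-seq replicate 1 or 2 (edgeR adjusted p = 0.117 and 0.130 without the first), and SeC(e)TCA not without replicate 4 either (edgeR adjusted p = 0.0506).

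Isoacceptors of the same amino acid were set against each other. Of 12 isotypes with several bound isoacceptors, 9 had a single leader in both Pol III libraries. Leaders in occupancy were taken over bound genes, while the shares of Pol III in this paragraph are over all loci. The leader in occupancy also led 5′ fragments for 8 of these 9 isotypes and 3′ CCA fragments for 5 of 9, and near full-length reads for 4 of the 7 that have such reads. GluCTC held 67.2% ± 2.21 of glutamate occupancy (SD, n = 2) and 92.8% ± 1.23 of its 5′ fragments. GluTTC held 80.1% ± 1.70 of the glutamate 3′ CCA fragments and 71.4% ± 6.24 of the near full-length reads (SD, n = 4). The order of both glutamate tRNAs was therefore reversed between classes of the same libraries. With 3′ CCA reads of any length under 90% of the gene, GluTTC held 62.6% ± 9.54 (SD, n = 4) but only 48.5% in replicate 1. For arginine, ArgACG led Pol III with 28.6% ± 1.98 and 5′ fragments with 67.6% ± 3.47, ArgTCT led 3′ CCA fragments with 71.7% ± 9.56, and ArgCCT led near full-length reads with 82.2% ± 9.25. For lysine, LysCTT held 56.5% ± 1.49 of Pol III, 97.8% ± 0.451 of 5′ fragments and 99.7% ± 0.251 of near full-length reads, but LysTTT held 95.3% ± 9.33 of 3′ CCA fragments, which were few. With 3′ CCA reads of any length under 90% of the gene LysCTT held 96.1% ± 1.35, so that the lead of LysTTT is set by the limit of 25 to 40 nt. The valine tRNAs ValAAC, ValCAC and ValTAC had 37.4% ± 3.34, 36.9% ± 0.322 and 25.7% ± 3.02 of Pol III over all loci. Over bound genes they lay close, at ranks 34, 36 and 35 of all isoacceptors, and the leader differed between the Pol III libraries. Of valine 5′ fragments ValCAC held 97.9% ± 0.236, and of the 3′ CCA fragments ValTAC held 92.1% ± 1.42. Leucine split in the same way, with LeuCAG at 78.7% ± 3.73 of 5′ fragments and LeuCAA at 71.4% ± 4.46 of 3′ CCA fragments. For glycine, GlyGCC led all 4 readouts, with 54.6% ± 1.48 of Pol III, 96.0% ± 0.183 of 5′ fragments, 59.4% ± 5.85 of 3′ CCA fragments and 53.7% ± 4.56 of near full-length reads. Only its 5′ share lay far from its share of occupancy. That share includes sequences also listed under GlyCCC, and GlyGCC was not called against Pol III with sequences of a single isoacceptor. That setting also leaves out the top GlyGCC fragment, which was placed on a GlyGCC gene with 0 mismatches.

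Shares of some groups of isoacceptors in the read classes were set beside their shares of occupancy, without a test between groups. The 16 isoacceptors of Asp, Glu, Gly, His, Lys and Val, isotypes the study names for 5′ fragments, held 27.4% ± 0.642 of Pol III counts (SD, n = 2), 91.6% ± 1.39 of 5′ fragments, 45.0% ± 6.71 of 3′ CCA fragments and 99.9% ± 0.0271 of near full-length reads (SD, n = 4). Against Pol III, 3 of them were higher and 11 lower in 5′ fragments, where 3 (4.69%) and 57 (89.1%) of all 64 tested were, with a median log2 difference of −3.33 beside −9.08 over all tested, isoacceptors without reads being set at their floor. Of the 13 with a bound gene, 3 were higher and 8 lower, with a median of −2.69 beside −7.01 over the 47 with a bound gene. The study named these isotypes because their 5′ fragments were enriched without NSun2, a comparison that included WT samples like these. Their count is thus not independent evidence. GlyGCC, AspGTC and ValAAC, substrates of the methyltransferase Dnmt2, held 9.86% ± 0.303, 74.6% ± 1.40, 24.2% ± 4.11 and 8.72% ± 1.68 in the same order. Of these 3, GlyGCC was higher in 5′ fragments and AspGTC and ValAAC lower, beside 3 (4.69%) and 57 (89.1%) of all 64 tested, with a median of −2.69 beside −9.08. The summed 5′ share rests on GlyGCC, which was not called with sequences of a single isoacceptor (0.72). The study cites this list from earlier work, and it was chosen here with earlier results of these data known. The 12 isoacceptors of Leu and Ser held 21.9% ± 0.813 of Pol III but 0.0797% ± 0.0235 of 5′ fragments. All 12 were lower in 5′ fragments, as were 57 of all 64 tested (89.1%), with a median of −9.26 beside −9.08. The 9 with a bound gene held 17.1% ± 1.74 of the Pol III counts in bound genes (SD, n = 2). All 9 were lower in 5′ fragments, with a median of −9.01 beside −7.01 over the 47 with a bound gene. In 3′ CCA fragments 11 of the 12 were lower, as were 51 of the 64 (79.7%), with a median of −5.28 beside −5.58. SerGCT, the exception, had 4.65% ± 5.18 of 3′ CCA fragments (SD, n = 4) and was lower too without replicate 1. The 16 isoacceptors with an anticodon starting with A, 9 of them with a bound gene, held 19.4% ± 0.562 of Pol III, 0.561% ± 0.127 of 5′ fragments, 5.04% ± 0.642 of 3′ CCA fragments and 0.00441% ± 0.00136 of near full-length reads. All 16 were lower in 5′ fragments and in near full-length reads, as were 57 (89.1%) and 60 (93.8%) of all 64 tested, with medians of −10.58 and −10.99 beside −9.08 and −10.75. Of the 16, 9 and 13 were set at their floor in these classes. Over isoacceptors with a bound gene the medians were −7.66 and −12.77 beside −7.01 and −11.65. Over all loci AlaAGC had the most occupancy of them and IleAAT the next, while over bound genes IleAAT stood above AlaAGC. IleAAT had no near full-length read.

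Of the shared internal features, the B box was searched as GGTTCGANNCC on both strands of 247 tRNA genes from the study's list of transcribed genes. The study identified transcribed genes with Pol III ChIP-seq of skin first, so that the bound shares and levels below are partly set by the list. It was found on the gene strand in 162 of them (65.6%). Among genes with it, 85.2% were bound, with a median of 2578 RPM, and among the 85 genes without it 76.5% were bound, with a median of 2083 RPM. All searched genes of GluTTC, GluCTC, LysCTT, HisGTG and TyrGTA had these letters, and none of MetCAT, CysGCA, GlnCTG, LysTTT or ProAGG. MetCAT, the leader of bound genes, had no match, which says only that these letters are not in the 13 MetCAT genes searched.

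The A of that motif is part of the T loop, where it is methylated at N1 in many tRNAs, a change that lets reverse transcriptase stop or insert another base. The loop motif that holds this A was found in 93.5% of the 247 genes. In 3′ CCA fragments, 17.4% ± 2.93 of counts read A at this base, 54.7% ± 1.32 T and 27.3% ± 4.07 G (SD, n = 4). In near full-length reads, 80.8% ± 2.82 read A and 13.6% ± 2.63 T (SD, n = 4). Among 29 isoacceptors with enough 3′ CCA fragments, the median share of A was 8.16%, and 27 had A in under 50%. Among 11 with enough near full-length reads the median was 12.5%, and 7 had A in under 50%, so that the high share over all near full-length reads comes from the few isoacceptors that make up most of them. GluTTC, the leader of near full-length reads, read A in 96.8% ± 0.672 of 3′ CCA fragments and 92.2% ± 0.666 of near full-length reads. GlyTCC and GlyCCC also read A less often in near full-length reads, with 1.89% and 3.27% against 10.4% and 8.16%. AspGTC read A in 49.3% ± 7.39 and 88.2% ± 2.83, and GluCTC in 40.8% ± 8.06 and 60.5% ± 2.91. In HisGTG the share of A was 3.97% ± 1.28 and 13.5% ± 5.65, and in ArgTCT, the leader of 3′ CCA fragments by its mean, 3.14% ± 0.217. GlyGCC read T in 96.6% ± 1.42 and 95.8% ± 1.21. Modification itself was not measured here, and its part in the distance between occupancy and near full-length reads was not tested.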

How the data were processed

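For Pol III ChIP-seq, the authors aligned reads to mm9 with Bowtie and deposited raw counts per predicted tRNA gene, not scaled to library size. For tRNA-seq, the authors deposited raw counts per tRNA gene and read sequence, also unscaled, after alignment with Bowtie, trimming of CCA from unaligned reads and a second alignment. Reads that match several loci were distributed by the authors in both tables.

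Here each listed sequence was placed without gaps, in either orientation, on 247 mm9 tRNA genes with at most 4 mismatches. RPM divides by all counts of a library, and shares divide by the counts of a read class. Loci of undetermined type stayed in the Pol III total, where they took 3.86% and 2.50% of counts, and were not used as an isoacceptor. Tests ran in R 4.3.3 with edgeR 4.0.16 and DESeq2 1.42.0, and other steps in Python 3.11.15 with numpy 2.4.6, pandas 2.3.3, matplotlib 3.10.9 and scipy 1.17.1. edgeR's quasi-likelihood test took column totals as offsets, and class against class had the library as a block, since both classes come from the same library. The test was tested on simulated data, where it recovered fewer changes in comparisons with 3′ CCA fragments than in the others. The tRNA-seq libraries held between 17352126 and 24270307 counts and the Pol III libraries 36866 and 63136, a median of 3 and 4 per locus, so that single loci have few reads. With 2 against 4 libraries the smallest exact permutation p is 0.0667, so that single values per library were not tested. Intervals are exact binomial ones.

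Isoacceptors were named as the 10 highest of each readout and up to 5 per direction in each comparison with libraries that do not overlap. The members and lists were chosen with earlier results of these data known. Alternatives covered scaling, low counts, bound genes, input, mismatches, shared sequences, fragment limits, a replicate block and each library left out. NSun2−/− libraries and bisulphite sequencing were not analysed here.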

Additional observations from a re-analysis of the deposited data

Results flagged for a closer look

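In 4 of 33 groups of 4 tRNA-seq libraries, replicate 1 lay far from the other libraries relative to their whole range. Chance flags about 1 in 20 independent groups. These groups are shares from the same libraries and are not independent, so that the 4 flags cannot be set against that rate. The share of LysCTT in 5′ fragments was 2.64% in WT tRNA-seq replicate 1 and 3.73%, 3.56% and 3.61% in the others. In 3′ CCA fragments, ArgTCT had 13.8% in WT tRNA-seq replicate 1 and 37.8%, 39.0% and 35.9% in the others. GlyGCC had 10.01% in WT tRNA-seq replicate 1 and 4.68%, 3.79% and 3.99% in the others of the same class, and GluTTC 6.25% in WT tRNA-seq replicate 1 and 4.33%, 3.96% and 4.21% in the others. LysCTT and ArgTCT were low in replicate 1, and GlyGCC and GluTTC were high there. The cause was not tested.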

How the results depend on the processing

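Spearman's rho with occupancy is given in the order 5′ fragments, 3′ CCA fragments, near full-length reads and all tRNA reads, for which it was 0.76, 0.74, 0.50 and 0.79 over all loci. It moved to 0.55, 0.52, 0.39 and 0.56 with bound genes only, 0.64, 0.60, 0.47 and 0.67 with the input subtracted, 0.67, 0.61, 0.44 and 0.69 with at least 50 counts in both Pol III libraries and 0.0658, 0.40, 0.16 and 0.17 per bound gene. With no minimum count it was 0.78 for 5′ fragments and 0.82 for all reads. Without the 2 isoacceptors with most reads, 5′ fragments had 0.74, near full-length reads 0.48 and all reads 0.78. Over bound genes without the 4 intron-containing isoacceptors it was 0.56, 0.56, 0.41 and 0.61, over those with genes short enough for near full-length reads 0.52, 0.50, 0.44 and 0.54, and for 5′ fragments with starts within 1 nt 0.55, all chosen after seeing the data. With each library left out it ranged over 0.75 to 0.77, 0.71 to 0.76, 0.49 to 0.51 and 0.79 to 0.80.

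The share of the 5 most abundant isoacceptors was 83.0% of 5′ fragments, 75.6% of 3′ CCA fragments and 67.4% of all reads with sequences of a single isoacceptor, and 24.3% of Pol III counts with bound genes only. The number of isoacceptors called between 3′ CCA fragments and Pol III fell from 57 of 64 to 37 of 47 with bound genes only, where fewer are tested. GlyCCC in 5′ fragments against Pol III turned to −3.85 with no mismatches, and LysCTT in 3′ CCA fragments against near full-length reads to 0.63 with any length under 90%. Where no construction shows it, the cause was not tested. Over the 55 results named as up to 5 per direction of a comparison, 663 values under the alternatives kept direction and call. Another 19 kept the direction and lost the call, and 2 reversed. Other results given in the text are not part of this count.

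With a replicate block between assays, which share only a number, 3 isoacceptors were higher and 56 lower in 5′ fragments, 4 and 37 in 3′ CCA fragments, and 2 and 59 in near full-length reads. AspGTC in near full-length reads was then at 0.99 and ArgTCG in 3′ CCA fragments at 1.02, neither called. Deviations of equal numbers correlated at −0.207 and −0.162 for 5′ fragments, 0.212 and 0.174 for 3′ CCA fragments and −0.0861 and −0.0199 for near full-length reads, too few pairs to tell whether the numbers pair. Without the library block, no count of calls between classes changed. Leaving out a Pol III library leaves 1, which is assumed to vary like the tRNA-seq libraries. Low Pol III counts limit isoacceptors with few genes, and shared sequences limit glycine tRNAs.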
